A study of Mus musculus with 18 samples.

Results

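Mmp13, Mmp10, Inhba, Pdgfb, Olr1 and Car2 are 6 of the 43432 genes in the RNA-seq table of mouse T cells. They were chosen by measured values, a high RNA level in stimulated cells and a low one in stimulated cells that received actinomycin D, which blocks transcription. Those differences are therefore given here as a description and are not tested. The choice also took in the 58 peaks named for these genes among the 27729 peaks of the GCLiPP list. RNA was sequenced in 8 libraries of C57BL/6 T cells, 1 library for each combination of cell type (CD8 or Th2), state (stimulated or resting) and drug (actinomycin D or none). Cells were activated on immobilised antibodies against CD3 and CD28, for 5 days by the labels, whereas the methods move them to uncoated dishes after 3 days. CD8 cells were grown with IL-12 and IL-2 and Th2 cells, CD4 cells that make type 2 cytokines, with IL-4, IL-2 and an antibody against interferon gamma. Cell type and cytokines therefore cannot be told apart. Over the last 4 h stimulated cells had PMA and ionomycin, which imitate signalling from the T cell receptor, and resting cells had fresh medium. The labels give all 8 libraries the same preparation, with ultraviolet crosslinking of the cells, poly-A selection on oligo-dT beads and a stranded kit. They do not say whether drug-treated and untreated libraries were made together. The methods describe the drug as added once PMA and ionomycin had acted for 4 h, and say that cells treated in this way were also collected for RNA-seq. How long the drug acted in these libraries is not given there, nor how resting cells received it. Ifng, an inducible cytokine gene picked out after its values were seen, had 31214 normalised reads in stimulated CD8 cells with the drug and 3445 in resting ones with it, against 87665 in stimulated and 993 in resting CD8 cells without it.

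Values are normalised reads, the authors' read counts per gene divided by 1 size factor per library, so that 1 read was worth 0.779 to 1.19 units. Libraries held 24154849 to 31042504 gene reads, and 10972 genes, the 6 among them, had a mean of at least 50 and entered the tests. Cd4 had 25.9 to 281 normalised reads in CD8 libraries, against 20061 to 39568 in Th2 libraries, and Cd8a had 10516 to 15750 in CD8 libraries, against 1331 to 2401 in Th2 libraries. Of 7 CD8 markers 6 were higher in CD8 cells in all 4 pairs of matched libraries, and all 6 Th2 markers were lower. The exception was Gzma (granzyme A), with 2845 to 5607 in CD8 libraries, against 17761 to 30403 in Th2 libraries. Since no condition was repeated, matched libraries of different conditions stood in as replicates and p-values measure only their spread. In bulk RNA, more cells that express a gene and more RNA per cell cannot be told apart.

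The genes encode proteins that act outside the cell, at its surface or on its acid balance. Mmp13 (collagenase 3) and Mmp10 (stromelysin 2) are secreted matrix metalloproteinases, zinc enzymes made as inactive precursors that cut collagens and other matrix proteins and are held in check by the TIMP inhibitors. Inhba encodes the βA subunit, which pairs with itself to form activin A, a TGF-β family ligand read through activin receptors and SMAD2 and SMAD3. Pdgfb encodes the B chain of platelet-derived growth factor, which acts on Pdgfrb in fibroblasts and mural cells. Olr1 (LOX-1) is a lectin-like scavenger receptor for oxidised low-density lipoprotein, known best in endothelium and macrophages. Car2 is the cytosolic carbonic anhydrase II, which interconverts carbon dioxide and bicarbonate.

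In mm10 the table places Mmp13 (ENSMUSG00000050578) on chromosome 9 from 7272514 to 7283333 and Mmp10 (ENSMUSG00000047562) on the same chromosome from 7502352 to 7510238, both on the plus strand. Inhba (ENSMUSG00000041324) lies on chromosome 13 from 16011851 to 16027211 and Car2 (ENSMUSG00000027562) on chromosome 3 from 14886273 to 14900770, also on the plus strand. Pdgfb (ENSMUSG00000000489, chromosome 15, 79995900 to 80014808) and Olr1 (ENSMUSG00000030162, chromosome 6, 129485246 to 129507165) are on the minus strand. Promoter sequences, from 250 bases before to 50 after the start site in RefSeq (GRCm38.p6), were found for 4 of the 6 genes, Mmp13, Mmp10, Inhba and Olr1. A site for AP-1, the FOS and JUN dimer that PMA and ionomycin are known to activate, has the letters TGANTCA and was searched on both strands. It lay in 3 of those 4 promoters, against 7.81% of the 32851 promoters of 300 bases. Each of the 3 was 1 site that reads as a match on either strand. The windows below show the site in capitals, and whether AP-1 acts on these genes was not tested.

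Mmp13, chr9:7272468-7272497, plus strand, site from base -35: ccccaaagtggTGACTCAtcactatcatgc

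Mmp10, chr9:7502268-7502297, plus strand, site from base -63: tagcacccatgTGAGTCAtgcttagtgacc

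Olr1, chr6:129507207-129507236, minus strand, site from base -60: cccgcgacggtTGAGTCAtcctctgctaga

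Positions count back from the start site, with -1 the base before it. A letter match is a description of the sequence and not evidence of binding. TATAAA, the TATA box, was found in Mmp13, Mmp10 and Inhba on the sense strand, from bases -16, -29 and -91, and TATAAA on either strand in 13.6% of all promoters. GGAAAA, the core read by NFAT, was found in Mmp13 and Mmp10 on the antisense strand and in 23.4% of all promoters on either strand. TGACGTCA, the cyclic AMP response element, was in none of the 4 and in 1.79% of all promoters, and TATATA was in none of the 4 and in 5.67%.

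All 6 genes were at their highest in the stimulated library without the drug, in CD8 and in Th2 cells alike. This pattern is what the genes were chosen for. Mmp13, the collagenase, had 2.98 normalised reads in stimulated CD8 cells with actinomycin D and 1.97 in resting CD8 cells with it, against 1315 in stimulated and 18.7 in resting CD8 cells without it. In Th2 cells Mmp13 had 1.90 in stimulated and 3.68 in resting cells with the drug, against 1681 in stimulated and 4.67 in resting cells without it. Mmp13 was thus seen at 2 to 6 reads in 5 of the 8 libraries, at 18 in resting CD8 cells and at 1109 and 1484 in stimulated untreated CD8 and Th2 cells.

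Mmp10, the stromelysin, had 60.6 normalised reads in stimulated CD8 cells with actinomycin D and 45.3 in resting ones, against 6555 in stimulated and 111 in resting CD8 cells without it. In Th2 cells it had 145 in stimulated and 101 in resting cells with the drug, against 5926 in stimulated and 559 in resting cells without it. Unlike Mmp13, it was measurable in every library, and in resting Th2 cells it was already at 718 reads. Of the 50-base words of Mmp10, 8.37% also occur in Mmp3, which was at 0 in every library.

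Inhba, the activin subunit, had 18.9 normalised reads in stimulated CD8 cells with the drug and 8.86 in resting ones, against 376 in stimulated and 8.29 in resting CD8 cells without it. In Th2 cells it had 430 in stimulated and 352 in resting cells with the drug, against 33998 in stimulated and 192 in resting cells without it. All 4 Th2 libraries were above the CD8 libraries other than the stimulated untreated one. Pdgfb, the growth factor chain, had 75.5 in stimulated and 22.6 in resting CD8 cells with the drug, against 9013 in stimulated and 149 in resting CD8 cells without it. In Th2 cells Pdgfb had 130 in stimulated and 56.1 in resting cells with the drug, against 3557 in stimulated and 237 in resting cells without it. In resting cells of either type Pdgfb was lower with the drug than without it.

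Olr1, the scavenger receptor, had 2.98 normalised reads in stimulated CD8 cells with the drug and 3.94 in resting ones, against 58.1 in stimulated and 4.15 in resting CD8 cells without it. In Th2 cells it had 8.56 in stimulated and 10.1 in resting cells with the drug, against 1975 in stimulated and 10.9 in resting cells without it. Apart from the stimulated untreated pair, its values rest on 3 to 14 reads. Car2, the carbonic anhydrase, had 4.97 in stimulated and 27.6 in resting CD8 cells with the drug, against 148 in stimulated and 11.4 in resting CD8 cells without it. In Th2 cells Car2 had 129 in stimulated and 136 in resting cells with the drug, against 1487 in stimulated and 81.7 in resting cells without it.

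**Figure D1:**
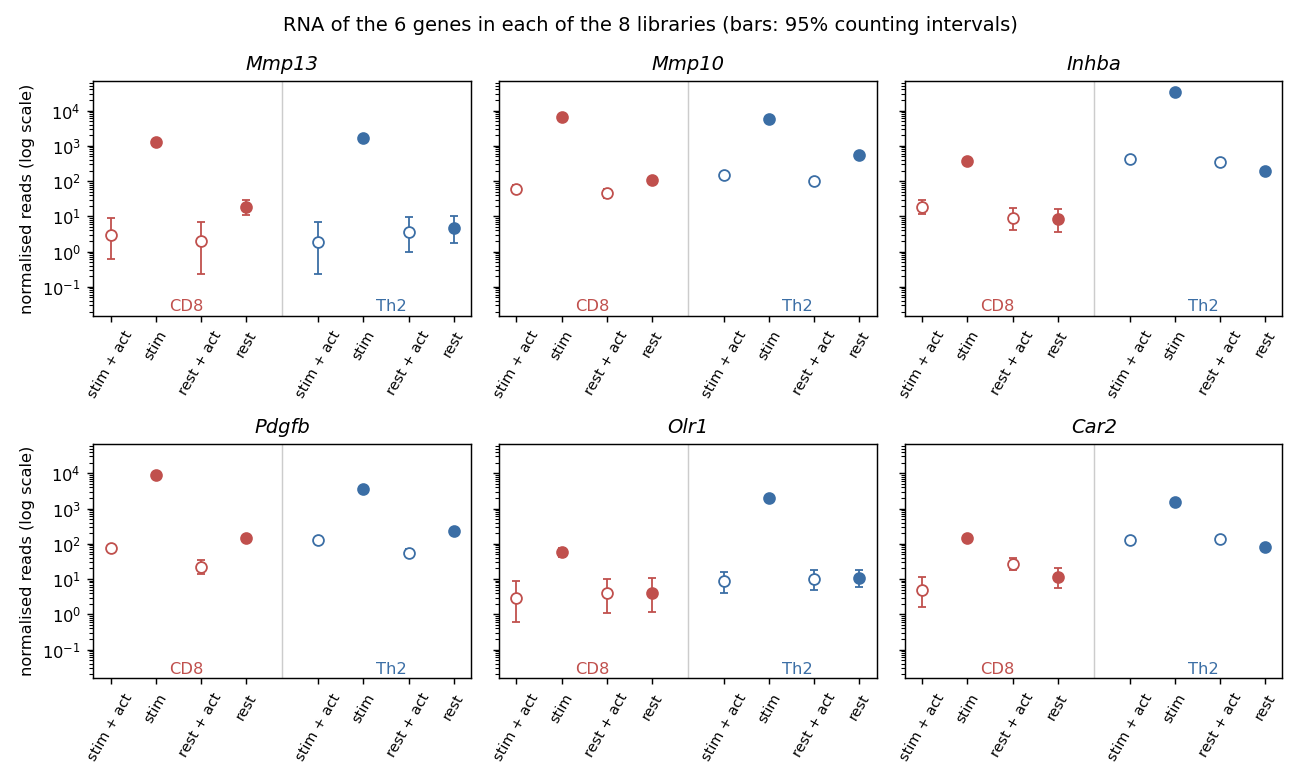
Normalised reads (log axis) of the 6 genes in each library, CD8 in red and Th2 in blue, with actinomycin D (act) as open and without as filled circles, for stimulated (stim) and resting (rest) cells; bars are exact 95% counting intervals. The stimulated library without the drug is highest for every gene, from 58.1 for Olr1 in CD8 cells to 33998 for Inhba in Th2 cells.

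Per kilobase of exon within the bounds the table gives, the order of the genes differed between cell types. In stimulated untreated CD8 cells it was Mmp10 (3811 normalised reads per kb), Pdgfb (2273), Mmp13 (492), Inhba (190), Car2 (61.2) and Olr1 (16.3). In stimulated untreated Th2 cells it was Inhba (17171), Mmp10 (3445), Pdgfb (897), Mmp13 (629), Car2 (614) and Olr1 (553). The last 3 of the Th2 order, from 629 to 553, lay close together, and without repeat libraries the order of neighbours cannot be tested. Inhba headed both drug-treated Th2 libraries too (217 per kb in stimulated and 178 in resting cells), whereas Mmp10 headed both drug-treated CD8 libraries (35.2 and 26.3). Inhba has 1980 exon bases within those bounds, while its GENCODE transcript Inhba-201 has 6390. Which of them were counted is not stated, so the place of Inhba in these orders can depend on the length used.

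The ratio of stimulated to resting cells without the drug was at least 4-fold on values plus 1 for all 6 genes in both cell types, as it was for 2.4% of tested genes in CD8 and 2.38% in Th2 cells. Mmp13 was 70.4-fold higher in stimulated CD8 cells (95% counting interval 44.4 to 119) and 360-fold higher in stimulated Th2 cells (165 to 982). Inhba was 45.3-fold higher in CD8 (22.7 to 106) and 178-fold in Th2 cells (157 to 202), and Olr1 14.0-fold (5.13 to 53.4) and 181-fold (108 to 332). For Mmp10 and Pdgfb the larger ratios were in CD8 cells, at 59.1 (48.8 to 72.2) and 60.4 (51.2 to 71.7), against 10.6 (9.80 to 11.5) and 15.0 (13.3 to 16.9) in Th2 cells. Car2 had 13.0 (7.02 to 26.7) in CD8 and 18.2 (14.9 to 22.4) in Th2 cells. Intervals here and below cover counting error only, and PCR copies make them too narrow.

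In the presence of actinomycin D no gene of the 6 reached 4-fold between stimulated and resting cells, as 0.191% of tested genes did in CD8 and 0.155% in Th2 cells. Pdgfb kept the largest ratio, 3.33 in CD8 (2.07 to 5.57) and 2.32 in Th2 cells (1.71 to 3.20), and its CD8 ratio ranked 32 among the tested genes on values plus 1. Mmp10 had 1.34 (0.898 to 2.01) in CD8 and 1.43 (1.11 to 1.84) in Th2 cells. Inhba had 2.13 (0.919 to 5.35) and 1.22 (1.06 to 1.40). For Mmp13 and Olr1 the intervals ran from below 0.4 to above 2 in either cell type, so that no difference was detectable at these read numbers. Car2 went the other way in CD8 cells, with 5 reads in stimulated and 28 in resting cells given the drug, a ratio of 0.180 (0.0543 to 0.473), whereas in Th2 cells it was 0.951 (0.748 to 1.21). Only 2 tested genes had a lower ratio than Car2 in the drug-treated CD8 libraries, and this value rests on 5 reads in 1 library.

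Set against untreated cells of the same state, stimulated cells with the drug had at least 4-fold less RNA of all 6 genes in both cell types, on values plus 1, as did 5.12% of tested genes in CD8 and 6.24% in Th2 cells. Mmp13 was 441-fold lower in stimulated CD8 cells (3 against 1109 reads, 151 to 2142) and 883-fold lower in stimulated Th2 cells (2 against 1484 reads, 244 to 7299). Among tested genes Mmp13 had the lowest log2 difference of all in both pairs, a rank that the choice of genes favours. Pdgfb and Mmp10 were 119-fold (95.3 to 152) and 108-fold (84.1 to 142) lower in CD8 cells, and 27.3-fold (23.0 to 32.6) and 41.0-fold (34.9 to 48.5) lower in Th2 cells. Inhba was 19.9-fold lower (12.5 to 33.5) in CD8 and 79.0-fold (72.0 to 86.9) in Th2 cells, Olr1 19.5-fold (6.29 to 97.8) and 231-fold (121 to 505), and Car2 29.8-fold (12.4 to 93.5) and 11.5-fold (9.62 to 13.8).

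The genes parted in resting cells. Pdgfb was 6.59-fold lower with the drug in CD8 (4.23 to 10.7) and 4.23-fold lower in Th2 cells (3.21 to 5.67), and Mmp10 2.45-fold (1.72 to 3.54) and 5.53-fold (4.52 to 6.82). Mmp13 was 9.48-fold lower in CD8 cells on 2 against 18 reads (2.27 to 84.2), and in Th2 cells it was at 4 against 6 reads. For Inhba the drug over untreated ratio was 1.07 (0.366 to 3.18) in CD8 and 1.84 (1.56 to 2.17) in Th2 cells. Car2 had ratios of 2.42 (1.17 to 5.38) and 1.66 (1.29 to 2.16), and Olr1 0.949 (0.177 to 5.10) and 0.928 (0.381 to 2.20). A 4-fold lower value was thus seen for 2 of the 6 genes in resting CD8 cells (Mmp13 and Pdgfb) and for 2 in resting Th2 cells (Mmp10 and Pdgfb), where 2.59% and 2.73% of tested genes had one. These values are relative to the other RNA in a library. With libraries scaled to 75 ribosomal protein genes instead, the resting ratios of all 6 genes were lower in both cell types. Inhba then had 0.692 in CD8 and 0.969 in Th2 cells, so that its direction turned, and Car2 had 1.57 and 0.878, with a turn in Th2 cells only. Mmp10 had 0.264 and 0.0954, Pdgfb 0.0983 and 0.125, Mmp13 0.0684 and 0.415, and Olr1 0.615 and 0.489.

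Stimulated cells given the drug were also compared with resting cells that never had it. Inhba was 2.25-fold higher in such Th2 cells (1.92 to 2.63) and 2.28-fold in CD8 cells (0.951 to 6.01). Car2 was 1.58-fold higher in Th2 cells (1.22 to 2.06) but 2.30-fold lower in CD8 cells on 5 against 11 reads (0.735 to 8.43). Mmp13 was 6.26-fold lower in CD8 cells on 3 against 18 reads (1.83 to 33.2), and in Th2 cells it was at 2 against 6 reads. Olr1 was at 3 against 4 reads in CD8 and 9 against 14 in Th2 cells. Pdgfb was 1.98-fold lower in CD8 (1.49 to 2.65) and 1.82-fold lower in Th2 cells (1.48 to 2.24), and Mmp10 1.83-fold (1.32 to 2.55) and 3.86-fold lower (3.24 to 4.63). With ribosomal scaling these ratios were lower for every gene in both cell types. Car2 then had 1.08 in Th2 and 0.317 in CD8 cells, and Inhba 1.53 and 1.65. Pdgfb had 0.374 in Th2 and 0.368 in CD8 cells, and Mmp10 0.176 and 0.397.

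The difference between cell types was not what the genes were chosen for, and was tested over 4 pairs of matched libraries. It is not fully independent of the choice, since the stimulated pairs hold the values that chose the genes. Olr1 and Car2 also reached the mean of 50 only through Th2 libraries (CD8 means of 17.3 and 48.0, against Th2 means of 501 and 459), so their lower values in CD8 cells are in part set by the filter. Of the 6 genes, 4 were lower in CD8 than in Th2 cells and none was higher (adjusted p under 0.05 over all genes). Of all tested genes 36.8% were called, with 18.7% lower in CD8 cells. Inhba was lower by 5.12 ± 0.34 on the log2 scale (log2 difference -5.12, SE, 4 pairs; limma adjusted p = 4.04e-05), with pair values of -4.44 and -6.50 in stimulated cells with and without the drug, and -5.16 and -4.37 in resting ones. Its CD8 value lay below the Th2 value in each pair, by 22.8-fold to 90.5-fold. Over all libraries the cell types overlapped for each of the 6 genes: none had its 4 CD8 values all below, or all above, its 4 Th2 values, as 8.6% and 7.36% of tested genes had. Car2 had a log2 difference of -3.19 ± 0.35 (limma adjusted p = 0.000448) and was also lower in 4 of 4 pairs, by 4.94-fold to 26.1-fold. An additive model in place of the matched pairs ended the Car2 call (adjusted p = 0.0576), and no left-out library did.

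Olr1 had a log2 difference of -2.18 ± 0.69 (limma adjusted p = 0.0426), lower in 4 of 4 pairs. The stimulated untreated pair was at -5.06 and the other pairs at -1.17 to -1.26, where CD8 libraries held 3 or 4 reads against 9 to 14 in Th2 libraries. The Olr1 call ended with a pseudocount of 5 (adjusted p = 0.0835), with quantile normalisation (-0.43, 0.758) and in an additive model (0.259), and also without either stimulated drug-treated, resting drug-treated or resting untreated library (-2.51 to -2.48, 0.0595 to 0.0856). Mmp10 had -1.14 ± 0.34 (limma adjusted p = 0.0366) and was lower in 3 of 4 pairs, at -1.24 in stimulated drug-treated, -1.14 in resting drug-treated and -2.32 in resting untreated cells, against 0.15 in stimulated untreated cells. The Mmp10 call ended in edgeR on the recovered reads (-1.06, adjusted p = 0.170), in an additive model (0.379) and without any of the same 6 libraries (-1.14 to -0.75, 0.0913 to 0.123). The edgeR fit, here and below, also left out the stimulated drug-treated CD8 library, so tool and library cannot be told apart in it. Of the 4 calls, that of Inhba alone held in the additive model (adjusted p = 0.0158), and it held under all 15 alternatives. In the 4 resting libraries alone, which hold none of the stimulated values, Inhba (-4.77 ± 0.34, limma adjusted p = 3.61e-05), Car2 (-2.50 ± 0.33, 0.000905), Mmp10 (-1.73 ± 0.30, 0.00397) and Pdgfb (-0.97 ± 0.28, 0.0318) were lower in CD8 cells, as 16.3% of tested genes were. Olr1 (-1.19 ± 0.64, 0.199) and Mmp13 (0.57 ± 0.82, 0.635) did not pass there. This fit was chosen after seeing the data, and with 2 pairs its errors rest mostly on the spread shared by all genes. The filter still took the mean of all 8 libraries, so Car2 and Olr1 entered this fit only through Th2 libraries. Resting values also enter the stimulation changes of the 6 genes, so the fit is not fully independent of their choice.

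Mmp13 did not pass the test, at 0.31 ± 0.45 (limma adjusted p = 0.620): it was higher in CD8 cells in 2 pairs, with 18 reads in resting untreated CD8 cells against 6 in Th2 cells, and lower in the other 2. In stimulated untreated cells it was 1.28-fold lower in CD8 than in Th2 cells (1.18 to 1.38). Pdgfb had -0.34 ± 0.39 (limma adjusted p = 0.519). It was lower in CD8 cells in 3 pairs, at -0.78, -1.27 and -0.67, and 2.53-fold higher in the stimulated untreated pair (2.43 to 2.64). Without either stimulated untreated library, whose pair then drops out, Pdgfb had -0.91 and passed (adjusted p = 0.00424 without the CD8 and 0.00328 without the Th2 library).

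**Figure D2:**
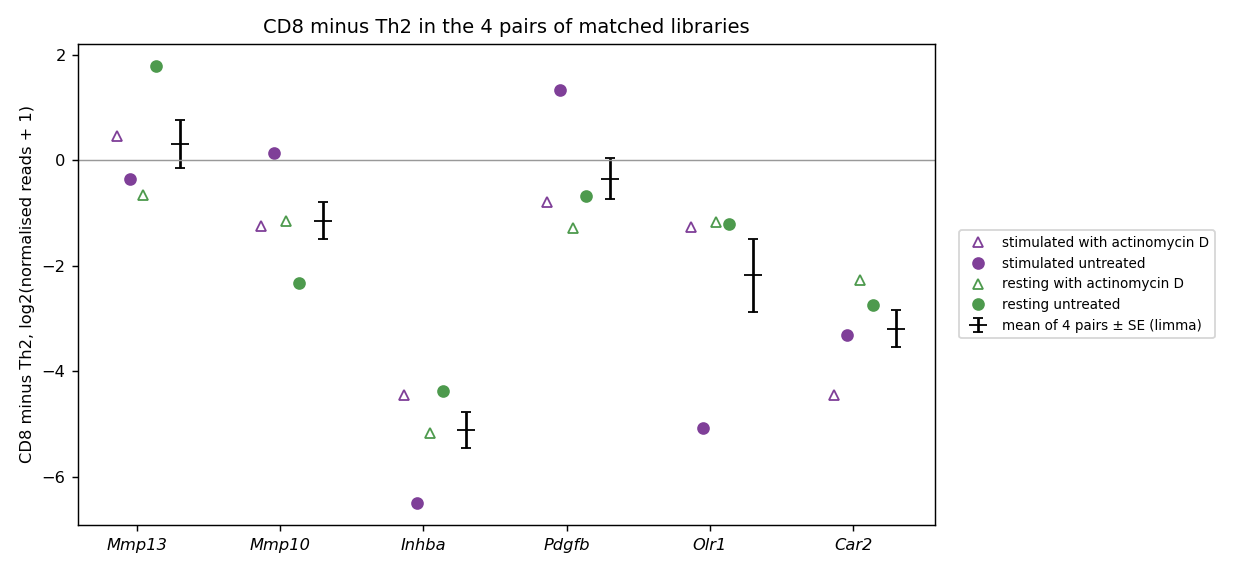
CD8 minus Th2 difference in log2(normalised reads + 1) for each of the 4 pairs of matched libraries (purple, stimulated; green, resting; open triangles, with actinomycin D; filled circles, without) and the mean with its SE from limma in black. Inhba, Olr1 and Car2 are below 0 in all 4 pairs, while Pdgfb and Mmp10 are above 0 in stimulated untreated cells only.

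Whether stimulation changed a gene differently in CD8 and in Th2 cells was fitted as an interaction term over all 8 libraries, with drug-treated and untreated libraries as its replicates. By limma 0% of the 10972 genes passed, with 173 at an unadjusted p under 0.05. The edgeR fit on the recovered reads used 7 libraries, without the stimulated drug-treated CD8 one, so tool and set of libraries changed together. More genes were called in that fit, and also in limma without the same library or without the stimulated drug-treated Th2 library. The interaction term is built from the stimulated values by which the 6 genes were chosen, so theirs are given as a description with no test. The CD8 minus Th2 difference in stimulation response was 1.18 for Mmp10 and 1.25 for Pdgfb, and -0.52 for Mmp13, -0.70 for Inhba, -1.97 for Olr1 and -1.38 for Car2, on the log2 scale.

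Markers of other cell types were read beside the cell type difference. The 5 B cell markers summed to 136 to 231 normalised reads in CD8 libraries, against 731 to 858 in Th2 libraries. The 10 macrophage and monocyte markers summed to 123 to 463 in CD8 and 453 to 921 in Th2 libraries. In this list Cd68 made up most of the CD8 sums, at 77.0 to 414, and had 73.2 to 235 in Th2 libraries. Adgre1 had 0 to 3.56 in CD8 and 259 to 482 in Th2 libraries, and Lyz2 0 to 2.98 and 22.7 to 132. Csf1r reached 10.7 in CD8 and 9.20 in Th2 libraries, and C1qa was at 0. The 6 neutrophil markers summed to 2.37 to 9.84 in CD8 and 27.2 to 56.1 in Th2 libraries, in Th2 libraries nearly all of it Ly6g, with S100a8 at 0 throughout. The 6 endothelial markers summed to 325 to 778 in CD8 and 1174 to 1907 in Th2 libraries, nearly all of it Pecam1, which T cells also express, with Emcn at 0. The 5 dendritic cell markers summed to 64.3 to 1145 in CD8 and 165 to 470 in Th2 libraries, with Siglech at 0, and the high end in both was the stimulated untreated library (1145 in CD8, 470 in Th2 cells), where Zbtb46 had 1051 in CD8 and 212 in Th2 cells. The mast cell and basophil markers reached 313 in stimulated untreated CD8 cells, of which Kit was 303, and 26.6 to 58.9 in Th2 libraries. Erythroid markers summed to at most 16.7, megakaryocyte and platelet markers to at most 79.7 and fibroblast markers to at most 84.2. The part of such cells in the values of the 6 genes was not tested.

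The matrix metalloproteinases and their inhibitors were followed in a list of 42 genes, 14 of them tested beside Mmp13 and Mmp10. Mmp9 (gelatinase B) had 558 normalised reads in stimulated and 552 in resting CD8 cells with the drug, against 5284 and 232 without it. In Th2 cells Mmp9 had 37.1 in stimulated and 49.7 in resting cells with the drug, and 82.7 and 32.7 without it. It was higher in CD8 cells by 4.02 ± 0.46 (limma adjusted p = 0.000558, 4 of 4 pairs). Mmp12 (macrophage elastase) had 15.4 in stimulated untreated CD8 cells, was at 0 in the other CD8 libraries, and was at 87.2 to 177 in Th2 cells. Its log2 difference was -5.98 ± 0.83 (limma adjusted p = 0.00141), a value that depends on the pseudocount. Mmp12 reached the mean of 50 only through Th2 libraries, so its lower value in CD8 cells is in part set by the filter. Mmp7 (matrilysin), below the mean of 50, had at most 2.37 in CD8 and 28.8 to 82.7 in Th2 libraries. Mmp11 had 4.53 to 86.6 and Mmp14 22.6 to 71.1 over the 8 libraries, and 12 others had highest values of 0.92 to 38.9. Mmp1a, Mmp1b, Mmp3 and Mmp21 were at 0.

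**Figure D3:**
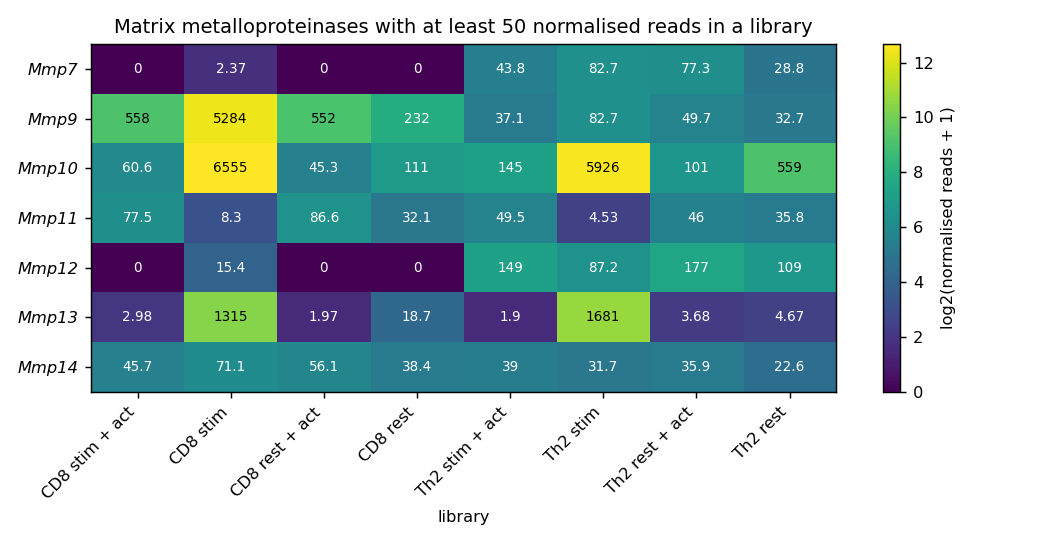
Normalised reads (numbers) of the 7 matrix metalloproteinases that reached 50 in a library, coloured by log2(normalised reads + 1), in stimulated (stim) and resting (rest) CD8 and Th2 libraries with actinomycin D (act) or without. Mmp10 and Mmp13 are high in the stimulated untreated library of both cell types, and Mmp9 in that of CD8 cells, at 5284.

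In stimulated cells without the drug 4 of the 14 were higher and none lower, where 14.7% of tested genes were higher and 13.4% lower (28.1% in all), with a median log2 change of 0.28 over the 14 against 0.03 over all tested genes. These were Timp1, an inhibitor of metalloproteinases (2.79 ± 0.34, limma adjusted p = 0.00243), the membrane protease Adam8 (2.44 ± 0.19, 0.000618), Mmp9 (2.91 ± 0.65, 0.0175) and Adamts14 (1.37 ± 0.31, 0.0186). The Mmp9 and Adamts14 calls ended without the resting CD8 library (2.09 and 0.82, 0.123 and 0.100). Timp1 had 47.7 in stimulated and 63.0 in resting CD8 cells with the drug, against 159 and 31.1 without it, and in Th2 cells 61.9 and 104 with it, against 495 and 50.6 without it. Adam8 had 3066 in stimulated and 3173 in resting CD8 cells with the drug, against 16821 and 2439 without it. The interaction of stimulation with the drug was negative for 3 of the 14 and positive for none, where 7.44% of tested genes had a negative and 7.06% a positive interaction (14.5% in all; medians -0.54 over the 14 and -0.01 over all). These were Timp1 (-3.36 ± 0.48, limma adjusted p = 0.0121), Adam8 (-2.64 ± 0.27, 0.00531) and Adamts14 (-1.78 ± 0.44, 0.0401). The Adam8 call ended without the stimulated drug-treated Th2 library (-2.61, 0.0607), the Timp1 call without that library, either resting drug-treated one or resting untreated Th2 cells (-3.45 to -3.04, 0.0550 to 0.0789). The Adamts14 call ended without either drug-treated library of CD8 or of Th2 cells, or resting untreated CD8 cells (-2.14 to -1.23, 0.0594 to 0.169), with no filter on low values (0.0639), with ribosomal scaling (-1.13, 0.0606) and in edgeR (-2.15, 0.0664).

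Between cell types 4 of the 14 were higher in CD8 cells and 5 lower, where 18.1% and 18.7% of tested genes were, with medians of 0.10 and 0.02. The 5 include Mmp12, which passed the filter only through Th2 libraries. Besides Mmp9, Adamts14 (2.21 ± 0.22, limma adjusted p = 0.000294) and Adam19 (1.79 ± 0.10, 2.08e-05) were higher. Timp2, an inhibitor, was lower after Mmp12, at -2.94 ± 0.14 (1.08e-05), with 88.1 to 109 in CD8 against 578 to 1001 in Th2 libraries. Timp1 was lower at -0.85 ± 0.24 (0.0298), a call that ended with quantile normalisation (-0.56, 0.140), in an additive model (0.409) and without either resting drug-treated, either resting untreated or the stimulated untreated Th2 library (-0.91 to -0.59, 0.0519 to 0.0854). With actinomycin D, where 16.8% of tested genes were higher and 21.9% lower (38.7% in all), Adam15 was higher (0.84 ± 0.21, limma adjusted p = 0.0252) and Adam19 lower (-0.55 ± 0.13, 0.0202). The Adam15 call ended in edgeR (0.91, 0.0681) and with ribosomal scaling (0.40, 0.231), and the Adam19 call in edgeR (-0.61, 0.0581) and with quantile normalisation (-0.39, 0.0559). Without any CD8 library or either resting Th2 library both calls ended (0.66 to 0.89, 0.0697 to 0.0898 for Adam15, and -0.63 to -0.55, 0.0523 to 0.0765 for Adam19).

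In the activin list Inha, the inhibin α subunit, had 5.93 to 56.6 normalised reads in CD8 and 32.7 to 121 in Th2 libraries, while Inhbb, Inhbc and Inhbe had at most 2.27 in any library. Of the antagonists, Fst (follistatin) had at most 1.13, and Fstl3 4.74 to 24.8. Of 9 other genes tested, 5 were lower with actinomycin D and none higher, against 21.9% lower and 16.8% higher of all tested genes (median log2 difference -1.20, against 0.00 over all tested genes). The largest differences were those of the SMAD proteins that carry the signal, Smad3 (-2.25 ± 0.24, limma adjusted p = 0.00233), Smad4 (-1.50 ± 0.14, 0.00184) and Smad2 (-1.25 ± 0.15, 0.00290). All 5 were lower under all 15 alternatives. Smad3 had 207 in stimulated and 152 in resting CD8 cells with the drug, against 551 and 747 without it, and in Th2 cells 605 and 560 with it, against 3383 and 3926 without it.

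In CD8 cells 3 of the 9 were lower than in Th2 cells and none higher, against 18.7% and 18.1% of all tested genes (median 0.03, against 0.02 over all tested genes). Smad3 was lower by 2.11 ± 0.18 on the log2 scale (log2 difference -2.11, limma adjusted p = 0.000142), the type II activin receptor Acvr2a had -2.10 ± 0.31 (0.00194) and the coreceptor Tgfbr3 -0.82 ± 0.11 (0.00110), each lower under all 15 alternatives. Acvr2a had 38.7 to 96.0 in CD8 and 179 to 369 in Th2 libraries. In stimulated untreated cells Acvr1 was higher (1.23 ± 0.23, limma adjusted p = 0.00999), and Tgfbr3 (-0.77 ± 0.15, 0.0118) and the type I receptor Acvr1b (-0.72 ± 0.21, 0.0388) were lower. The Acvr1 call ended without the resting untreated CD8 or Th2 library (1.12 to 1.35, 0.0569 to 0.0766), and the Tgfbr3 call without the resting untreated Th2 library (-0.63, 0.111). The Acvr1b call ended with no filter (0.0640) and without any CD8 library but the stimulated drug-treated one, or either resting Th2 library (-0.89 to -0.55, 0.0762 to 0.247). The interaction of stimulation with the drug was positive for Tgfbr3 (0.91 ± 0.22, 0.0355), which ended with no filter (0.0600), in edgeR (1.01, 0.0731) and without 6 of the libraries, all but the stimulated untreated ones (0.74 to 1.07, 0.0757 to 0.181).

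Of the other chains of its family, Pdgfa had at most 17.8 normalised reads in CD8 and 39.6 in Th2 cells, both in the stimulated untreated library, Pdgfc reached 3.56 and Pdgfd 1.13. The receptors were low: Pdgfrb, which binds the B chain, had 6.80 to 44.3, and Pdgfra at most 1.13. Of 4 other genes tested, 1 was higher and none lower with actinomycin D (16.8% and 21.9% of all tested genes), and 1 was higher and 2 were lower in CD8 cells (18.1% and 18.7%). The medians were -0.39 and -0.63, against 0.00 and 0.02 over all tested genes. Vegfb was higher with actinomycin D (1.04 ± 0.16, limma adjusted p = 0.00597), a call that ribosomal scaling ended (0.59, 0.111). Vegfb was also higher in CD8 cells (0.57 ± 0.12, 0.00913), whereas the semaphorin and VEGF co-receptor Nrp2 was lower by 5.50 ± 0.47 (log2 difference -5.50, 0.000129), with 0.98 to 9.33 in CD8 and 129 to 191 in Th2 libraries. Nrp2 passed the filter only through Th2 libraries, so its lower value in CD8 cells is in part set by the filter. The size of its difference rests on these low CD8 values. Nrp1 was lower in CD8 cells too (-1.34 ± 0.37, 0.0269), but not in edgeR (-1.55, 0.0676), in an additive model (0.0522) or without either stimulated drug-treated or resting untreated library (-1.53 to -1.50, 0.0507 to 0.0595). None of the 4 passed the test of stimulation without the drug.

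Among the scavenger receptors of modified lipoproteins, Msr1 was at 0 in all CD8 libraries and at 4.53 to 18.4 in Th2 libraries, and Marco was at 0. Of 7 other genes tested, 2 were higher and 2 lower in CD8 cells (18.1% and 18.7% of all tested genes), 2 were higher and none lower with actinomycin D (16.8% and 21.9%), and none was higher and 1 lower in stimulated untreated cells (14.7% and 13.4%). The medians were -0.10, 0.51 and 0.05, against 0.02, 0.00 and 0.03 over all tested genes. Lrp1 (1.80 ± 0.17, limma adjusted p = 0.000223) and Cd36 (1.28 ± 0.26, 0.00820) were higher in CD8 cells, and Stab1 (-2.49 ± 0.38, 0.00210) and Scarb2 (-0.46 ± 0.09, 0.00513) lower, all under all 15 alternatives. Cd36 reached the mean set by the filter only through CD8 libraries, and Stab1 only through Th2 libraries. The directions of Cd36 and Stab1 are therefore in part set by the filter. Cd68, a lysosomal glycoprotein, was higher with actinomycin D (1.64 ± 0.26, 0.00653), at 414 in stimulated and 216 in resting CD8 cells with it, against 77.0 and 84.0 without it. Scarb2 was higher with the drug (0.51 ± 0.15, 0.0409), but not in edgeR (0.48, 0.147), with ribosomal scaling (0.07, 0.877), with no filter (0.0655) or without any 1 of the 8 libraries (0.40 to 0.60, 0.0662 to 0.146). It was lower in stimulated untreated cells (-0.40 ± 0.12, 0.0442), but not in edgeR (-0.44, 0.0589), with no filter (0.0793) or without any library but the stimulated untreated CD8 one (-0.41 to -0.35, 0.0648 to 0.186).

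Of the other carbonic anhydrases, Car5b, a mitochondrial form, had 1113 to 2392 normalised reads in CD8 and 713 to 1273 in Th2 libraries, and Car12, a membrane form, 1154 to 1605 and 597 to 944. Car13 had 88.9 to 122 in CD8 and 123 to 211 in Th2 libraries, and Car9 20.2 to 88.4 and 29.4 to 80.9. Car8, Car11, Car7 and Car15 reached 75.9, 38.6, 34.0 and 13.5, and Car4, Car5a, Car14, Car3 and Car6 at most 9.20. Car1 and Car10 were at 0 in every library. Of 8 other genes of the list tested, 2 were higher and 3 lower in CD8 cells (18.1% and 18.7% of all tested genes), 2 higher and none lower in stimulated untreated cells (14.7% and 13.4%), and 2 higher and 1 lower with actinomycin D (16.8% and 21.9%). The medians were -0.37, 0.34 and -0.13, against 0.02, 0.03 and 0.00 over all tested genes. Car12 (0.85 ± 0.10, limma adjusted p = 0.000491) and Car5b (0.65 ± 0.11, 0.00318) were higher in CD8 cells, while the bicarbonate transporters Slc4a4 (-2.42 ± 0.33, 0.00130), Slc4a7 (-0.64 ± 0.14, 0.0113) and Slc4a2 (-0.58 ± 0.11, 0.00678) were lower. An additive model ended the Slc4a7 and Slc4a2 calls (0.0621 and 0.0671), and edgeR (-0.52, 0.0506) and leaving out either resting drug-treated library (-0.59, 0.0523 to 0.0543) ended that of Slc4a7.

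In stimulated untreated cells Slc4a7 was higher by 1.37 ± 0.20 (limma adjusted p = 0.00422) under all 14 alternatives. Car5b was higher too (0.51 ± 0.15, 0.0445), but only in 3 of its 14 alternatives. The Car5b call ended with no filter (0.0727), with quantile normalisation (0.40, 0.0926), with ribosomal scaling (0.12, 0.673), in edgeR (0.48, 0.0754) and without any library but the stimulated untreated Th2 one (0.33 to 0.56, 0.0603 to 0.210). With actinomycin D Car9, an enzyme known as a hypoxia target, was higher (1.48 ± 0.28, 0.0108) except with ribosomal scaling (1.04, 0.0753). Car9 passed the filter only through drug-treated libraries, so its higher value with the drug is in part set by the filter. Car12 was higher with the drug (0.49 ± 0.13, 0.0266) and Car5b lower (-0.64 ± 0.16, 0.0220). In edgeR neither passed (0.54, 0.0855 for Car12 and -0.49, 0.101 for Car5b), nor did Car12 with ribosomal scaling (0.05, 0.897). Without any CD8 library or either resting Th2 library both calls ended (0.48 to 0.52, 0.0847 to 0.112 for Car12 and -0.71 to -0.51, 0.0520 to 0.0909 for Car5b).

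As a description of likeness over the 8 libraries, Pearson's r of log2(normalised reads + 1) was 0.922 between Mmp13 and Mmp10, 0.943 between Mmp13 and Pdgfb and 0.973 between Mmp10 and Pdgfb. It was 0.945 between Inhba and Car2, 0.906 between Inhba and Olr1 and 0.867 between Olr1 and Car2, while the lowest value was 0.619 (Mmp13 and Car2, and Pdgfb and Car2). All points share the same libraries, and within each cell type the stimulated untreated library holds the highest value of each gene. Of all tested genes, those nearest to Mmp13 were Micu3, Dot1l and Ptprj (0.988, 0.986 and 0.986), to Mmp10 Bcl2l1, Bahd1 and Zfp948 (0.991, 0.990 and 0.988) and to Pdgfb Vav1, Snx9 and Morf4l2 (0.988, 0.987 and 0.986). Nearest to Inhba were Wdr59, Slc13a3 and Perp (0.992, 0.988 and 0.983), to Olr1 Stard3, the cytokine gene Il2 and Plscr1 (0.989, 0.986 and 0.984), and to Car2 Perp, Slc13a3 and Btbd19 (0.974, 0.973 and 0.971). Perp and Slc13a3 were in the list of both Inhba and Car2.

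GCLiPP recovers RNA that ultraviolet light at 254 nm (8000 mJ) has crosslinked to any protein, and the list pools 10 libraries (4 of CD8 and 6 of Th2 cells, none of them given actinomycin D per the labels). It has no values per library, so no condition was compared. Peaks were called within 3′ UTRs and each spans 70 bases. The score is a whole number from 13 to 22514 with a median of 24 whose meaning no source states. Of the 6 genes 4 had a peak, as did 59.1% of the tested genes, and Mmp13 and Car2 had none.

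Inhba had 43 peaks, a number that 7 of the 6689 genes with a peak reached, Inhba included, where the median was 2. Its scores ran from 13 to 95 with a median of 24. The centres lay 45 to 4431 bases after the stop codon, and the peaks covered 2777 of the 4492 bases of the 3′ UTR in GENCODE transcript Inhba-201 (61.8%). The highest scores, 95 and 91, were at 602 and 526 bases, and the next, 66, at 2139 bases. Of the 43 peaks, 42 lay outside the bounds that the RNA-seq table gives Inhba, which end inside that UTR, so the RNA value may not have counted reads there. Pdgfb had 12 peaks with scores of 13 to 49 over 767 of 1408 bases (54.5%), the highest 812 bases after the stop codon. Olr1 had 2 peaks, 1 of score 62 at 531 bases and 1 of 13 at 1317 bases, and Mmp10 had 1 of 13 at 101 bases in a 3′ UTR of 249 bases. At or above the median score were 22 peaks of Inhba, 4 of Pdgfb and 1 of Olr1.

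The middle 30 bases of the highest peak of each of these genes and 30 bases of the peak with the AU-rich pentamer ATTTA (in capitals) that scored highest are shown, read from GENCODE transcripts in the direction of the mRNA.

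Inhba, score 95, chr13:16027717-16027746, plus strand: cacacacacacgcccccccacacacacaca

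Inhba, score 43, chr13:16027180-16027209, plus strand: ggcaaaatgaagaaaaaaatataagATTTA

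Pdgfb, score 49, chr15:79996456-79996485, minus strand: ttgtaatgggatgtatattgcacatgatgc

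Pdgfb, score 30, chr15:79995920-79995949, minus strand: tttttattttttaaatgtaaagtttATTTA

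Olr1, score 62, chr6:129487121-129487150, minus strand: ctttatgacaggagtccatctccagactgc

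Mmp10, score 13, chr9:7510078-7510107, plus strand: cctgcatgttctgtggctccggatgagcgc

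The centre of the highest Inhba peak is made of CA repeats on both sides of a C-rich stretch. Over the whole of Inhba, 0.331% of its 50-base words also occur in other genes. That share does not cover shorter reads of such repeats, whose mapping was not tested. Of the peaks of the 4 genes 9 of 58 held ATTTA on the sense strand, 8 of 43 in Inhba and 1 of 12 in Pdgfb, against 7.90% of the 26458 peaks that could be read from transcripts. Inhba peaks overlap in places and share 1 transcript, so they are not independent. AATAAA, the polyadenylation signal, was in 2 peaks of Inhba and in 6.56% of all peaks, and ATTAAA in 1 and in 3.01%. TTATTTATT was in none of the 58 and in 0.208% of all peaks, and TGTANATA, the Pumilio core, in none and in 1.72%.

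**Figure D4:**
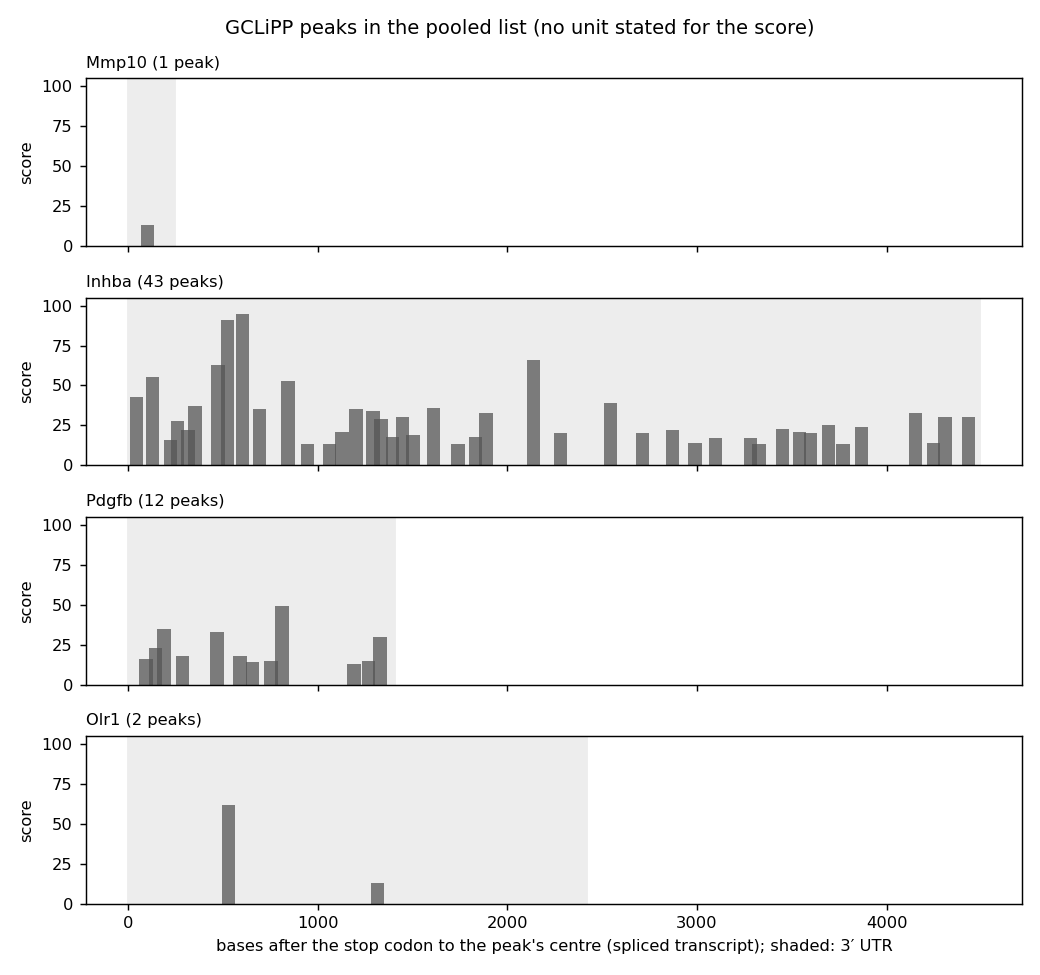
Score of each GCLiPP peak (no unit stated) against the distance in bases from the stop codon to the peak's centre along the spliced transcript, for the 4 genes with a peak; grey marks the 3′ UTR and each bar is 70 bases wide. The 43 Inhba peaks run from 45 to 4431 bases, with the highest scores of 95 and 91 at 602 and 526 bases.

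ATTTA over the whole 3′ UTR, the longest per gene in GENCODE, was counted for all 6 genes. Mmp13 had 6 in 1213 bases (4.95 per kb), Inhba 21 in 4492 bases (4.67 per kb) and Mmp10 1 in 249 bases (4.02 per kb), and 8.79% of 10427 tested genes had 4 per kb or more. Pdgfb had 3 in 1408 bases (2.13 per kb), Olr1 5 in 2422 bases (2.06 per kb) and Car2 none in 680 bases, against a median of 1.25 per kb. The nonamer TTATTTATT occurred 3 times in Inhba and in no other of the 6, and in 8.27% of the tested genes. Mmp13 thus had the most ATTTA per kb of the 6 but no GCLiPP peak. Without the drug it was at 1109 reads in stimulated and 18 in resting CD8 cells, and at 1484 and 6 in Th2 cells. Why it had no peak was not tested.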

How the data were processed

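The members and the gene lists were chosen with earlier results of these data known. RNA-seq reads were aligned by the authors with STAR to mm10, and the deposited signal is the authors' read count per gene over 1 size factor per library (whole reads recovered, 100% of values within 0.01 read). The kit was stranded per the labels, but no source used here names the counting tool, its annotation or its strand setting. Overlapping and antisense genes are therefore uncertain. A second table that repeats these values beside the authors' fold changes was not used. GCLiPP peaks carry the authors' deposited score, from all mouse libraries pooled after alignment with Bowtie2.

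Log2(value + 1) was fitted in limma 3.58.1 (R 4.3.3), allowing the variance to follow the mean, for genes with a mean of at least 50, with Benjamini-Hochberg adjustment over 10972 genes at 0.05, two-sided, so that changes of low genes are understated. CD8 minus Th2 was blocked by state and drug, and actinomycin D minus untreated by cell type and state. Stimulation, its interaction with the drug and its interaction with cell type used models of all 8 libraries. Alternatives were pseudocounts of 0.5 and 5, no filter, quantile normalisation, scaling to 75 ribosomal protein genes, edgeR 4.0.16 on the reads of 7 libraries (a factor near 1 kept the stimulated drug-treated CD8 library out), an additive model, leaving out each library and, added after seeing the data, resting libraries alone. Named genes were the 6, of each list up to 3 others a direction with the largest change among those called, all measured metalloproteinases, inhibin subunits, carbonic anhydrases and PDGF chains by level, and the 3 tested genes most like each. Other receptors and antagonists were named after their values were seen. Counting intervals are exact (Clopper-Pearson, 95%). Fits were tested on simulated counts. The values of 1 marker gene are not reported here.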

Additional observations from a re-analysis of the deposited data

How the results depend on the processing

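The number of genes called for actinomycin D was 4245 (43.4% higher), 2118 in edgeR and 2220 to 4052 without 1 library, with 56.3% higher after quantile normalisation and 2.35% after ribosomal scaling, which moved the median of all genes by -0.44. For stimulation without the drug it was 3088 (52.3% higher), 783 (without resting Th2) to 4096 without 1 library, with 41.5% higher after quantile normalisation and 16.7% after ribosomal scaling (median -0.36). For stimulation by drug it was 1591 (48.7% higher), 940 with no filter, 310 in edgeR, 25 (without stimulated drug-treated Th2) to 3315 without 1 library, and 4457 (93.4% higher, median 0.65) after ribosomal scaling. For CD8 minus Th2 it was 4037, 2358 in an additive model and 2380 to 4741 without 1 library. In the resting libraries alone, a fit chosen after seeing the data, it was 3434. For stimulation by cell type it was 0, 29 after ribosomal scaling, 201 in edgeR and 0 to 188 without 1 library. Of the 58 peaks, 27 were at or above the median score and 9 at or above the upper quartile. Of the 51 calls of other list genes, 28 held under every alternative, 6 were lost only without a library and 17 under another setting, with no direction turned; the causes were not tested. The ribosomal scaling moved 20 of 84 ratios of the 6 genes beyond their counting interval. Mmp13 and Olr1, at 2 to 18 reads in libraries other than the stimulated untreated ones, limit what depth can show. No paired analysis was possible because GCLiPP experiments share numbers but the peak list holds no values per library, and RNA-seq has 1 library per condition; the blocks used pair matched conditions, not replicates.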
